A study of Mus musculus with 3 samples.

Results

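Zbtb16 (PLZF), Gata3, Hivep3, Runx1, Bcl11b and Zfp683 encode 6 transcription factors of innate-like T cell development, and their transcripts are described here across the subsets of thymic iNKT cells. They were chosen by symbol, and are 6 of the 30406 genes that the 3 gene tables of the series share. Each of 3 single-cell libraries stood for 1 group. C57BL/6 was the thymus of unmanipulated mice of 7 weeks, labelled WT, without bone marrow transplantation (BMT). That age is the label's, and the paper gives a slightly higher one. BM only, labelled Non-GVHD, and BM + Spl, labelled GVHD, were both mice of 16 weeks, 9 weeks after BMT. Their recipients were lethally irradiated F1 hybrids of C57BL/6 and BALB/c that all received T cell-depleted C57BL/6 marrow, and BM + Spl recipients also received C57BL/6 splenic cells, which cause graft-versus-host disease. The thymi of several animals were pooled in a library, recipients keep radioresistant host cells, and CD8+ cells were removed before thymocytes positive for TCRβ and the CD1d tetramer and negative for CD24 and NK1.1 were sorted, a gate that leaves out NKT1 cells bearing NK1.1.

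iNKT cells carry an invariant T cell receptor α chain, recognise lipids on CD1d, and acquire effector programmes while still in the thymus. PLZF, a zinc finger protein with a BTB domain, directs that innate-like programme. GATA3 is the zinc finger factor of the type 2 programme, and NKT1, NKT2 and NKT17 cells are the iNKT subsets known for IFN-γ, IL-4 and IL-17. Hivep3 is a large zinc finger protein known from iNKT cell development, Runx1 is a Runt-domain factor that pairs with Cbfb, Bcl11b maintains T cell identity, and Zfp683 encodes Hobit, a factor of tissue-resident and NKT1 cells.

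The libraries held 4613 (C57BL/6), 5986 (BM only) and 5573 (BM + Spl) cell barcodes with a median of 11885, 4734 and 6485 UMIs (unique molecular identifiers, each standing for 1 captured transcript). Cells had to hold between 200 and 6000 genes and mitochondrial UMIs below 10%, which kept 4434, 5970 and 5557. The supplementary methods state fewer cells in all after the same limits, without naming the library of each number. The paper's main text gives the C57BL/6 library slightly more cells than were kept here. The excess of cells kept here thus lies in the BMT libraries, for a reason that was not tested. Thinning to 2700 UMIs left 4419, 5011 and 4989 cells, and marker lists without any of the 6 genes then gated 3073 (69.5%), 3355 (67.0%) and 2332 (46.7%) of them as NKT1, NKT1+NKT2, NKT2, NKT17 or precursor cells. The NKT1 gate needed 3 UMIs summed over Il2rb, Cxcr3, Nkg7, Klrd1, Xcl1 and Ccl5. The NKT2 gate needed 2 over Il17rb, Il4, Il13, Pdcd1 and Icos, and the NKT17 gate 3 over 9 genes with Il23r and Blk. No single gene of a list was required. The precursor gate took cells with a UMI of Ccr7 or S1pr1 that lay below the thresholds of the other lists after thinning. It held 201, 236 and 473 cells in C57BL/6, BM only and BM + Spl. Gates on all UMIs of a cell placed only 16, 138 and 268 cells there. Most precursor-gated cells of C57BL/6 thus met that gate only through thinning. Other gates changed size too. With gates on all UMIs the NKT2 gate of C57BL/6 went from 1668 to 588 cells and the NKT1 gate from 789 to 468. The NKT1+NKT2 gate went from 280 to 785 cells in C57BL/6, 277 to 616 in BM only and 203 to 408 in BM + Spl. The NKT2 gate of BM only went from 591 to 518 cells, and that of BM + Spl from 1106 to 986. Levels are CPM, the UMIs of a gene scaled to all UMIs of the same cells before thinning, with 95% exact Poisson intervals in parentheses. Ratios are on the log2 scale with exact conditional intervals, and all intervals cover counting error only. With 1 library per group no difference between groups has a replicate check and none was tested. Barcodes in both BMT libraries numbered 43, and none was shared with C57BL/6. Without those 43, all 65 ratios of the 11 main comparisons stayed within their intervals.

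Several measures set the libraries apart. The median share of mitochondrial UMIs was 6.52% in C57BL/6, 0.688% in BM only and 0.512% in BM + Spl. A limit of 5% left 166 of 1668 NKT2-gated and 110 of 789 NKT1-gated cells in C57BL/6. It removed no gated cell of the BMT libraries. The C57BL/6 table names Cell Ranger 3.0.2 and lists 31053 genes, the BMT tables name 7.0.0 and list 32285, and V beta UMIs were at 17.7 CPM in C57BL/6 against 1495 and 1670 CPM in BM only and BM + Spl. The library chemistry cannot be told apart from the group there, so C57BL/6 levels are set beside BMT levels without a ratio. Cells meeting marker lists of other cell types (regulatory T, CD8+, B and myeloid) were excluded, 515 (11.7%), 1204 (24.0%) and 1894 (38.0%) cells. Of these 500, 369 and 717 met the regulatory T list without a Foxp3 UMI, and that list (Ikzf2, Ctla4, Il2ra) holds genes that activated T cells also use. A V beta call needed 80% of the V beta UMIs of a cell on 1 segment, with Trbv12-2 and Trbv13-2 counted together as 1. The segments taken here as iNKT segments were Trbv1, Trbv12-2, Trbv13-1, Trbv13-2, Trbv13-3 and Trbv29. Cells with Trbv12-2 alone thus also counted as carrying an iNKT segment, and their number was not determined. Of the gated cells with a call, 282 of BM only and 501 of BM + Spl carried a segment outside that list. An iNKT segment was carried by 92.8% and 41.5% of the called NKT1-gated cells and by 65.9% and 36.6% of the called NKT17-gated cells of BM only and BM + Spl, so BMT results are also given for cells with an iNKT V beta segment alone. Such a segment does not by itself make a cell an iNKT cell, since conventional T cells use it too, and C57BL/6 was not divided because 19.8% of its cells held a V beta UMI. Foxp3 was at 14.6 CPM in the NKT1-gated cells of BM + Spl and 0.914 CPM in those of BM only, and the CD8 pair at 46.7 and 12.8 CPM. A factor outside the gates followed the NKT1 name, since Tbx21 was at 74.4, 131 and 79.2 CPM in NKT1-gated cells and at 10.2 or less in NKT2-gated cells.

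Zbtb16 was highest in NKT2-gated cells of every library. In C57BL/6 it was at 364 CPM (357 to 371) in NKT2-gated, 271 in precursor-gated, 235 in NKT17-gated, 199 in NKT1+NKT2-gated and 100.05 CPM (92 to 109) in NKT1-gated cells. BM only gave the same order, from 322 CPM (307 to 337) in NKT2-gated through 253, 166 and 121 to 46.1 CPM (42 to 50.5) in NKT1-gated cells. BM + Spl ran from 305 CPM (295 to 315) in NKT2-gated and 238 in precursor-gated cells through 133 in NKT1+NKT2-gated and 58.8 in NKT1-gated cells to 35.3 CPM (24.8 to 48.9) in NKT17-gated cells. Neighbours in each of these orders differed beyond counting error, and NKT17-gated cells took the third place in C57BL/6 and BM only but the last in BM + Spl. That last place depended on the gates. With gates on all UMIs of a cell, NKT17-gated cells of BM + Spl were above NKT1-gated cells by 1.20 log2 units. The gene lies on chromosome 9, 48654297 to 48836222 of GRCm38, on the minus strand.

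**Figure D1:**
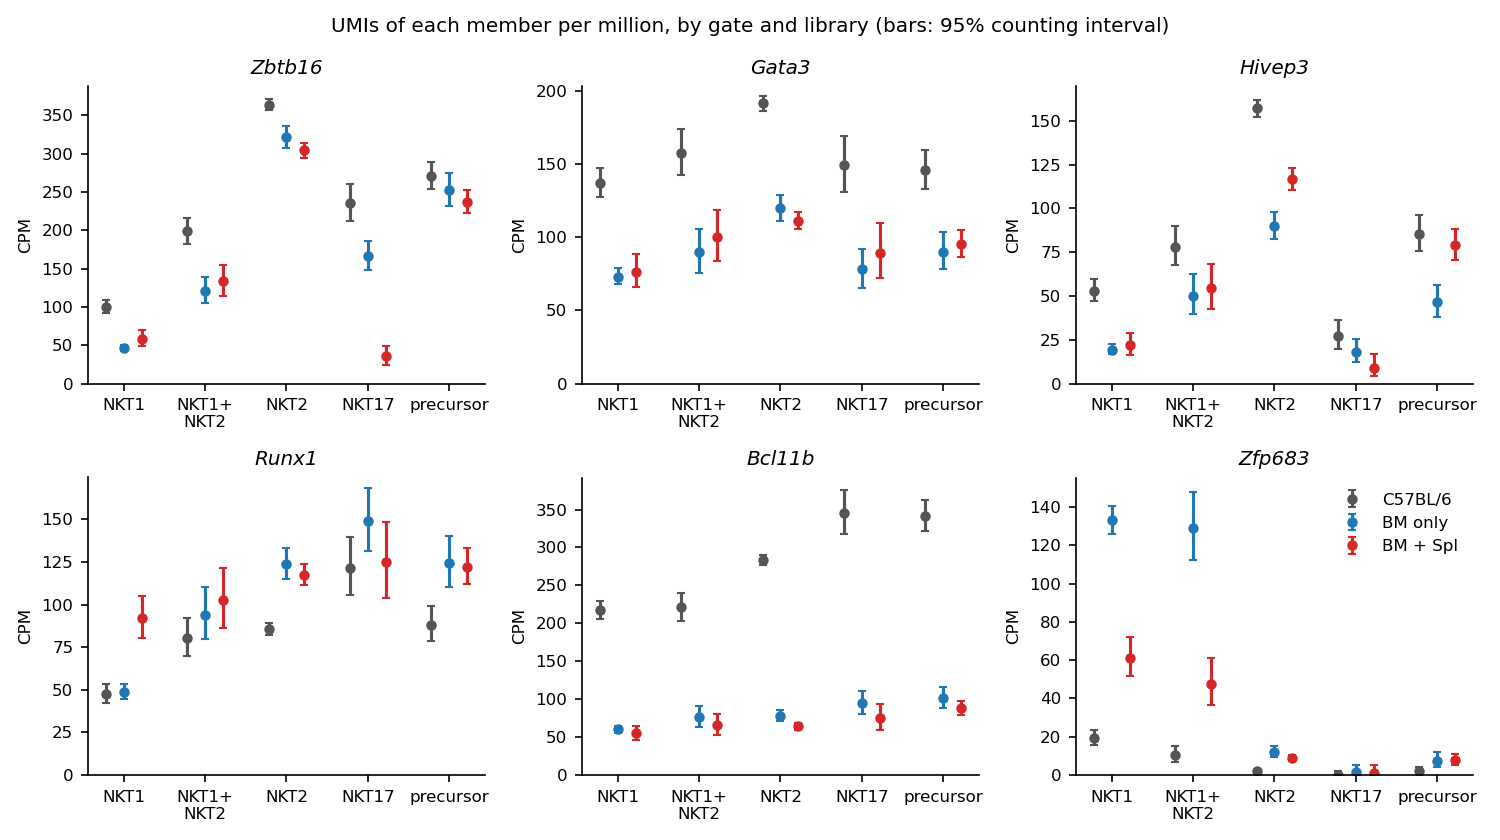
Level of each of the 6 genes (1 panel each, y axis in CPM) in the 5 gates (x axis) of the 3 libraries, with points as the pooled level of a gate and bars as 95% exact Poisson intervals. Zbtb16 and Hivep3 peak in NKT2-gated cells in all 3 libraries, and Zfp683 is seen mainly in NKT1-gated and NKT1+NKT2-gated cells.

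The share of cells with a Zbtb16 UMI ran the same way. After thinning it was 59.7% (57.3 to 62.1) of NKT2-gated and 15% (12.5 to 17.6) of NKT1-gated cells in C57BL/6, and 95.1% and 32.2% without thinning. In BM only the thinned shares were 55% and 11% (unthinned 87% and 17.4%), and in BM + Spl 54.1% and 10.1% (unthinned 85.2% and 16.3%). B cells, which should lack PLZF, gave 4.6% (1.27 to 11.4) in BM only and 1.47% (0.0372 to 7.92) in BM + Spl, and Foxp3+ cells 1.97% (0.854 to 3.85) and 1.44% (0.582 to 2.95) (unthinned 3.2% and 2.68%). The median depth before thinning was 4631 and 5859 UMIs in Foxp3+ cells and 4622 and 5059.5 UMIs in NKT1-gated cells of BM only and BM + Spl, and the NKT1-gated shares were above those of Foxp3+ cells in both. Against B cells, the NKT1-gated share of 11% in BM only lay inside their interval (1.27 to 11.4). The 10.1% of BM + Spl lay above theirs (0.0372 to 7.92). In NKT17-gated cells the thinned share was 48.1% in C57BL/6, 28.9% in BM only and 6.59% in BM + Spl.

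Gata3 followed the NKT2 gate more weakly. In C57BL/6 its level was 191 CPM (186 to 197) in NKT2-gated cells and between 137 and 158 CPM in the other 4 gates. In BM only it was 119.7 CPM (111 to 129) in NKT2-gated cells against 73 to 90.1 elsewhere, and in BM + Spl 111 CPM (105 to 117) against 76.3 to 99.8. NKT2-gated cells stood apart from the next gate in C57BL/6 and BM only, but in BM + Spl no neighbours in the order differed beyond counting error. Among cells of BM + Spl with an iNKT V beta segment, NKT2-gated cells were apart from the next gate, at a log2 ratio of 0.21 (0.016 to 0.40). Gata3 UMIs were found in 39.1%, 28.6% and 26% of thinned NKT2-gated cells (unthinned 84.3%, 59.9% and 61.2%). Foxp3+ cells, which are T cells that use GATA3 themselves, gave 28.3% and 27.8%, and myeloid cells 7.19% and 9.95% in BM only and BM + Spl (unthinned 14.1% and 19.7%).

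The start sites of Gata3 and Runx1, both found in every gate, are shown, and their upstream sequences differ in CpG content. RefSeq promoter windows (build GRCm38.p6) were matched for 4 of the 6 genes. Windows were cut where they met a GENCODE exon of the same gene, and those left too short were dropped, which kept Gata3 and Runx1. They are printed 5′ to 3′ on the gene's minus strand with CG dinucleotides in capitals. The windows of 250 bases end before the RefSeq start, and the window of 175 bases ends before a GENCODE exon.
Gata3, chr2:9878601-9878850: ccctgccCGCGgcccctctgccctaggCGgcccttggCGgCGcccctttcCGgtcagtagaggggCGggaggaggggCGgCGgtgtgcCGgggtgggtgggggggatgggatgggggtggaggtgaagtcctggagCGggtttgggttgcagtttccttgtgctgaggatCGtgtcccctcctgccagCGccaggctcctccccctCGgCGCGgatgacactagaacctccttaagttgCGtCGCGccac
Runx1, chr16:92826150-92826324: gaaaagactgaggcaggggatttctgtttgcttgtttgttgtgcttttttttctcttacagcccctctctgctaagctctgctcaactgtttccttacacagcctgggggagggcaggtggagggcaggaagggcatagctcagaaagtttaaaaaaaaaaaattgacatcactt
Runx1, chr16:92697330-92697579: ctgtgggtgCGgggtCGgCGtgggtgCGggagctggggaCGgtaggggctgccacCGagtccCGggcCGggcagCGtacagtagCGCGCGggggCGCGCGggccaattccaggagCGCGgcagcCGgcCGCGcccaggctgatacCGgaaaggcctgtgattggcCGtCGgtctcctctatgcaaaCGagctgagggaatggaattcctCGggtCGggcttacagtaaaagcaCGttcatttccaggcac
The Gata3 window holds 19 CpG in 250 bases, and the Runx1 windows hold 0 in 175 bases at the upstream start and 27 in 250 bases at the downstream start. Among 32851 RefSeq promoters the middle 50% hold 2 to 16 CpG in 250 bases, with a median of 6, and 1 to 9 in 175 bases, with a median of 3. The Gata3 window and the downstream Runx1 window lie in introns of longer GENCODE transcripts of the same gene. Letters of 4 motifs were searched on both strands and matched none of the 3 windows. Of all promoters 9.99% hold the GATA letters AGATAA in 250 bases and 7.54% in 175. The Runx letters TGTGGT are held by 14% and 10.1%. The E-box letters CAGCTG are held by 13% and 8.93%. The Ets letters CCGGAAG are held by 6.91% and 3.2%. Gata3 spans 9857078 to 9890034 of chromosome 2, and Runx1 spans 92601466 to 92826149 of chromosome 16.

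Hivep3, on the plus strand of chromosome 4 (119733784 to 120138045), was also highest in NKT2-gated cells of every library. In C57BL/6 it was at 157 CPM (152 to 162) in NKT2-gated, 85.5 in precursor-gated, 78.2 in NKT1+NKT2-gated, 53.1 in NKT1-gated and 26.9 CPM (19.5 to 36.1) in NKT17-gated cells. In BM only the same gates gave 90.1 CPM (82.6 to 98.1), 46.4, 50.1, 19.4 and 17.8 CPM (12.1 to 25.2). In BM + Spl they gave 117 CPM (111 to 123), 79, 54.4, 22.1 and 8.83 CPM (4.04 to 16.8). NKT2-gated cells were apart from the next gate in the 3 libraries, and NKT17-gated cells were last in each, although not apart from NKT1-gated cells in BM only or in the iNKT V beta cells of BM + Spl. With gates set on all UMIs of a cell NKT17-gated cells were above NKT1-gated cells, by 0.70 log2 units in C57BL/6 and 1.83 in BM + Spl. A Hivep3 UMI was seen in 4.44%, 4.36% and 1.65% of thinned NKT17-gated cells (unthinned 13.3%, 7.72% and 4.95%). Myeloid cells of BM only and BM + Spl gave 11.4% and 11.4%, and B cells 3.45% (0.717 to 9.75) and 7.35% (2.43 to 16.3). The NKT17-gated shares of both libraries lay below those of myeloid cells, as did the NKT1-gated shares of 4.25% and 4.89%, and their intervals overlap those of B cells, so Hivep3 in these gates could not be told from background at this depth. The myeloid cells are not a clean floor, since they held the T cell genes Cd3e, Cd3d and Trbc2 at 813 and 940 CPM together.

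Runx1 ran the other way between NKT1 and NKT17 gates. In NKT1-gated, NKT1+NKT2-gated, NKT2-gated, precursor-gated and NKT17-gated cells of C57BL/6 it was at 47.6 CPM (42.1 to 53.7), 80.1, 85.9, 88.2 and 122 CPM (105 to 139.8). BM only gave 48.7 CPM (44.5 to 53.3), 94, 124, 125 and 149 CPM (131 to 168). In both libraries NKT17-gated cells were apart at the top and NKT1-gated cells apart at the bottom. In iNKT V beta cells of BM only NKT17-gated cells were not apart from precursor-gated cells, at a log2 ratio of 0.205 (-0.12 to 0.52). BM + Spl gave 92.1 CPM (80.4 to 105), 103, 118, 122 and 125 CPM (104 to 148), and no neighbours there differed beyond counting error. Myeloid cells held Runx1 UMIs too, in 29.4% and 20.1% of the thinned cells of BM only and BM + Spl.

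Bcl11b, the T lineage factor (minus strand of chromosome 12, 107910403 to 108003602), varied by less than 2-fold between gates. Its levels were 217 CPM (205 to 229.6) in NKT1-gated and 346 CPM (318 to 376) in NKT17-gated cells of C57BL/6, 60.02 CPM (55.3 to 65.1) and 94.5 in BM only, and 55 CPM (46 to 65.3) and 74.6 in BM + Spl. Precursor-gated cells were at 341, 102 and 88.3 CPM, and NKT2-gated cells at 284, 78.3 and 64.4 CPM. Precursor-gated and NKT17-gated cells led in every library and were not apart from each other, but in the iNKT V beta cells of BM + Spl the NKT17-gated level was 59.7 CPM, the fourth of the 5 gates, with no neighbours apart.

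Zfp683 was found mainly in the gates that require NKT1 markers. In NKT1-gated and NKT1+NKT2-gated cells it was at 19.3 CPM (15.9 to 23.3) and 10.5 CPM (6.89 to 15.2) in C57BL/6, 133 CPM (126 to 141) and 129 CPM (112 to 148) in BM only, and 61.3 CPM (51.8 to 72) and 47.7 CPM (36.7 to 60.9) in BM + Spl. NKT2-gated cells were at 2.11, 12.2 and 8.7 CPM, and precursor-gated cells at 2.13, 7.28 and 7.59 CPM. NKT17-gated cells held 0, 3 and 1 UMIs. Where a count of 0 is taken to allow up to 3, the 135 cells of C57BL/6 allow a share of up to 2.22% of cells with a UMI. Thinned NKT1-gated cells had a Zfp683 UMI in 5.7%, 29.8% and 16.3% of cells (unthinned 12%, 45.5% and 24.2%), while Foxp3+ cells gave 0.985% and 0.412% in BM only and BM + Spl. The gene is on the plus strand of chromosome 4, 134053838 to 134058996.

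Set against each other within a library, NKT2-gated and NKT1-gated cells differed by over 1.5-fold in 4 of the 6 genes in C57BL/6, 5 in BM only and 3 in BM + Spl. Of all genes with at least 100 UMIs in the compared cells, 28.8% of 9509, 30.2% of 8629 and 22.5% of 8384 did so. The log2 ratio of NKT2-gated to NKT1-gated cells was 1.86 (1.74 to 1.99), 2.8 (2.65 to 2.95) and 2.37 (2.13 to 2.63) for Zbtb16 in C57BL/6, BM only and BM + Spl. It was 1.57, 2.22 and 2.4 for Hivep3, and 0.48, 0.71 and 0.54 for Gata3. These 3 genes were higher in NKT2-gated cells in each library, Gata3 past 1.5-fold in BM only. Zfp683 was lower, at -3.2 (-3.69 to -2.72), -3.45 (-3.82 to -3.11) and -2.82 (-3.19 to -2.44). Runx1 gave 0.85 (0.67 to 1.04), 1.35 (1.18 to 1.51) and 0.35 (0.15 to 0.56), and Bcl11b gave 0.39 (0.298 to 0.47), 0.38 (0.204 to 0.56) and 0.23 (-0.04 to 0.505).

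Among cells with an iNKT V beta segment, 3 ratios of BM + Spl changed their size or their call. The Zbtb16 ratio of BM + Spl was 1.46 (1.17 to 1.76) in those cells against 2.37 in all. NKT1-gated cells with the segment were at 114 CPM and all NKT1-gated cells at 58.8. Runx1 of BM + Spl was at 116 and 107 CPM in the iNKT V beta cells of the 2 gates, a ratio of 0.12 (-0.19 to 0.44) with 0 inside the interval. Gata3 of BM + Spl was at 0.596 (0.23 to 0.98), past 1.5-fold there but not in all cells. The Zbtb16 ratio of BM only was 2.81 (2.64 to 2.98). In iNKT V beta cells Hivep3 was at 2.31 (2.04 to 2.59) in BM only and 2.17 (1.58 to 2.83) in BM + Spl, and Zfp683 at -3.33 (-3.71 to -2.97) and -3.01 (-3.48 to -2.53). Without excluding other cell types the Zbtb16 ratio of BM + Spl was 3.29, and gates set on all UMIs of a cell gave 2.71 in C57BL/6. With those gates Hivep3 was at 2.29 in C57BL/6 and 3.56 in BM + Spl, and Zfp683 at -4.38, -4.48 and -4.16 in C57BL/6, BM only and BM + Spl.

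**Figure D2:**
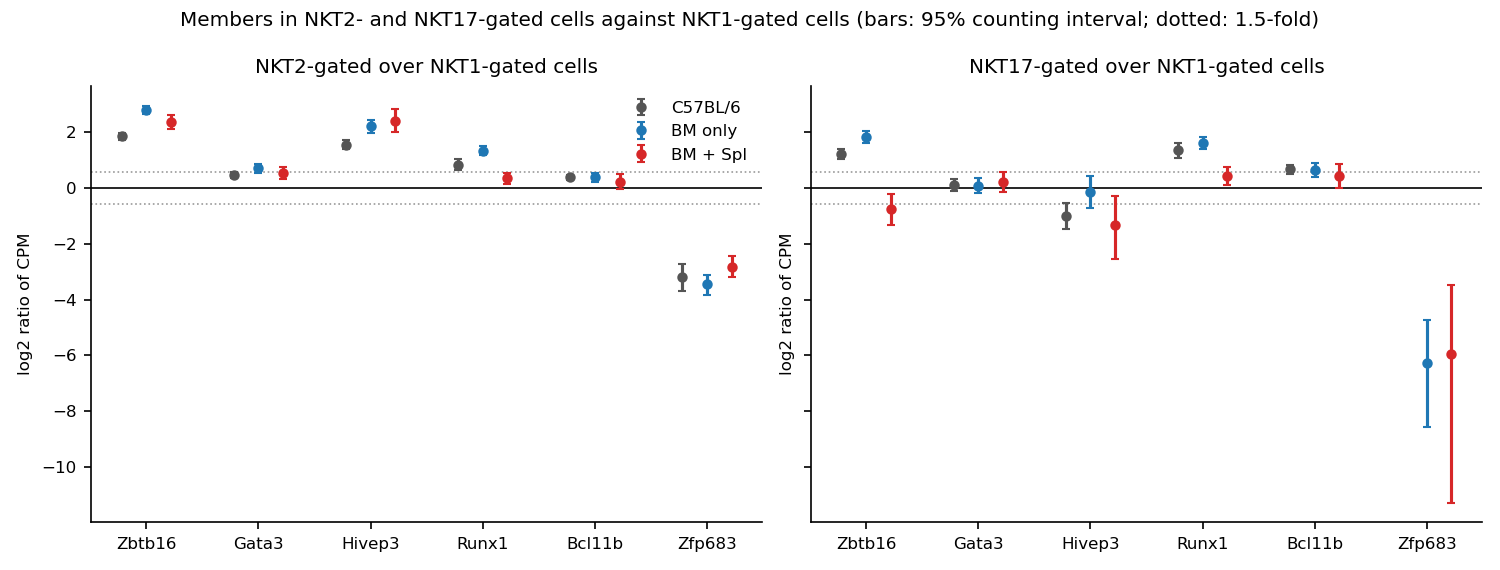
Log2 ratio of NKT2-gated to NKT1-gated cells (one panel) and of NKT17-gated to NKT1-gated cells (the other) for each of the 6 genes in the 3 libraries, with points as the pooled ratio and bars as 95% exact conditional intervals. Zbtb16 and Hivep3 lie above 0 and Zfp683 below 0 for NKT2-gated cells in all 3 libraries, and Zbtb16 of BM + Spl lies below 0 for NKT17-gated cells while the other 2 libraries lie above.

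NKT17-gated and NKT1-gated cells differed past 1.5-fold in 5 genes in C57BL/6, 4 in BM only and 2 in BM + Spl, against a background of 22.5% of 6600, 21.4% of 7968 and 11.9% of 4464 genes. Zbtb16 was higher in NKT17-gated cells of C57BL/6, at 1.23 (1.04 to 1.42), and of BM only, at 1.85 (1.63 to 2.07), and lower in those of BM + Spl, at -0.73 (-1.3 to -0.197). The last value was -0.69 (-1.37 to -0.05) in iNKT V beta cells, and it turned to 1.20 when gates were set on all UMIs of a cell. The value of C57BL/6 was 2.59 with gates on all UMIs and 1.83 with thinned UMIs only. It was 2.21 with mitochondrial UMIs under 5%. Runx1 gave 1.35 (1.08 to 1.62), 1.61 (1.39 to 1.83) and 0.44 (0.11 to 0.76) in C57BL/6, BM only and BM + Spl. It was 0.50 in C57BL/6 when only cells under 5% mitochondrial UMIs were kept, which left 2 NKT17-gated and 110 NKT1-gated cells. Bcl11b gave 0.67, 0.66 and 0.44. Gata3 stayed within 1.5-fold, at 0.12, 0.09 and 0.23. Hivep3 was at -0.98 (-1.47 to -0.52) in C57BL/6, which turned to 0.70 with gates on all UMIs, and at -0.13 (-0.72 to 0.43) in BM only. In BM + Spl it was at -1.32 (-2.53 to -0.29), from 9 and 53 UMIs, under the 100 needed for a call. That value turned to 1.83 with gates on all UMIs.

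The double-positive and precursor gates were compared in the same way. NKT1+NKT2-gated cells exceeded NKT1-gated cells in Zbtb16 by 0.99, 1.39 and 1.18 log2 units in C57BL/6, BM only and BM + Spl, and in Hivep3 by 0.56, 1.37 and 1.3. Runx1 was at 0.75 (0.48 to 1.02), 0.95 (0.67 to 1.21) and 0.16 (-0.16 to 0.47). Hivep3 of C57BL/6 and Runx1 of BM + Spl were within 1.5-fold. Of the 6 genes 2, 3 and 2 were higher and 1, 0 and 0 lower past 1.5-fold. Over all genes 6.15% of 6812, 6% of 7848 and 4.75% of 4757 differed past 1.5-fold. The NKT1-associated Zfp683 was at -0.89 (-1.55 to -0.27), -0.04 (-0.26 to 0.17) and -0.36 (-0.81 to 0.07) in that comparison, with 0 inside the interval in both BMT libraries. The log2 ratio of precursor-gated to NKT2-gated cells was -0.42, -0.35 and -0.36 for Zbtb16 and -0.88, -0.96 and -0.56 for Hivep3. Bcl11b was higher in precursor-gated cells, at 0.27, 0.38 and 0.45.

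BM + Spl was then set against BM only gate by gate. With 1 library per group, graft-versus-host disease cannot be told apart from other differences between the 2 libraries. In NKT1-gated cells 2 of the 6 genes differed past 1.5-fold, where 17.4% of 8063 genes did. Runx1 was at 92.1 CPM (80.4 to 105) in BM + Spl and 48.7 CPM (44.5 to 53.3) in BM only, a log2 ratio of 0.92 (0.68 to 1.15). Zfp683 was at 61.3 and 133 CPM, a ratio of -1.12 (-1.38 to -0.87). The other 4 genes gave 0.35 (0.07 to 0.63) for Zbtb16, 0.19 (-0.28 to 0.63) for Hivep3, 0.06 (-0.18 to 0.299) for Gata3 and -0.13 (-0.41 to 0.15) for Bcl11b. Hivep3 gave -0.69 with gates on all UMIs.

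Cells with an iNKT V beta segment gave a different value for Zbtb16. In NKT1-gated cells it was at 114 CPM (92.4 to 138) in BM + Spl (125 cells) and 46.6 CPM (41.9 to 51.6) in BM only (1552 cells), a log2 ratio of 1.29 (0.95 to 1.61), where 22% of 7172 genes passed 1.5-fold. NKT1-gated cells with another V beta segment were at 15.2 CPM (8.5 to 25) in BM + Spl (176 cells) and 36.8 CPM (23.1 to 55.7) in BM only (120 cells), a ratio of -1.28 (-2.33 to -0.27). The ratio over all NKT1-gated cells thus pooled a positive with a negative value, and it was -0.61 without excluding other cell types. In iNKT V beta cells Runx1 was at 1.19 (0.85 to 1.53) and Zfp683 at -0.87 (-1.25 to -0.51). In cells with another segment they were at 0.06 (-0.45 to 0.59) and -1.6 (-2.18 to -1.03), and without excluding other cell types Zfp683 was at -1.99. NKT1+NKT2-gated cells with an iNKT segment gave 209 and 117 CPM of Zbtb16 in BM + Spl and BM only, a ratio of 0.84 (0.498 to 1.18) where 19.7% of 2864 genes passed. The ratio over all NKT1+NKT2-gated cells was 0.14 (-0.16 to 0.44), and -0.80 when each gate list needed 1 UMI more. Zfp683 was lower there in all cells, at -1.44 (-1.87 to -1.03), the single gene of the 6 past 1.5-fold against 15.5% of 4109 genes. Of the NKT1-gated cells 54 of 1953 in BM only and 65 of 368 in BM + Spl lay at the threshold of 3 UMIs, and the median of NKT1-list UMIs was 11 and 6. The part of that difference in the ratios was not tested.

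**Figure D3:**
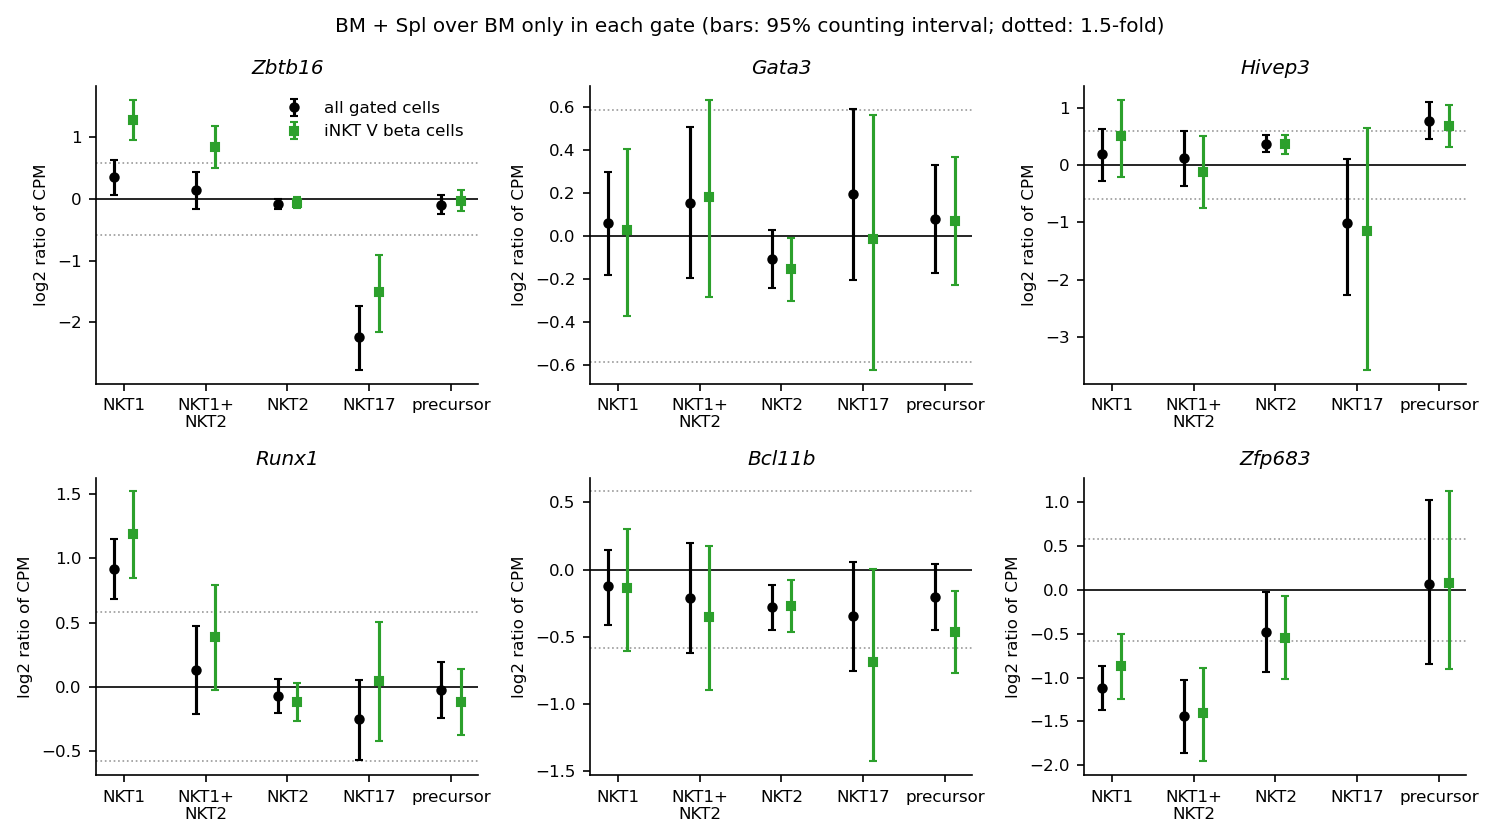
Log2 ratio of BM + Spl to BM only for each of the 6 genes in the 5 gates, for all gated cells and for cells with an iNKT V beta segment, with bars as 95% exact conditional intervals and no point below 20 UMIs over both libraries. NKT2-gated ratios lie within 1.5-fold for all 6 genes, and the NKT1-gated Zbtb16 ratio is 1.29 among iNKT V beta cells and 0.35 among all.

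Between NKT2-gated cells of the 2 BMT libraries none of the 6 genes passed 1.5-fold, where 2.66% of 8727 genes did. That count lies near the share over all genes and is no result about the 6 by itself. The ratios of BM + Spl to BM only were -0.08 (-0.16 to 0.002) for Zbtb16, -0.11 (-0.24 to 0.03) for Gata3, -0.08 (-0.21 to 0.06) for Runx1, 0.37 (0.23 to 0.52) for Hivep3, -0.28 (-0.45 to -0.11) for Bcl11b and -0.48 (-0.93 to -0.03) for Zfp683. Hivep3 was thus somewhat higher and Bcl11b and Zfp683 somewhat lower in BM + Spl beyond counting error. The Zfp683 ratio was 0.18 with thinned UMIs only. In precursor-gated cells Hivep3 was at 79 CPM (70.8 to 88) in BM + Spl and 46.4 CPM (37.8 to 56.3) in BM only, a ratio of 0.77 (0.44 to 1.1), the single gene of the 6 past 1.5-fold against 3.31% of 6353 genes. Bcl11b was there at a ratio of -0.21 (-0.45 to 0.04), with 0 inside the interval. Among iNKT V beta cells the Hivep3 ratio was 0.67 (0.32 to 1.04) and the Bcl11b ratio -0.47 (-0.77 to -0.16).

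NKT17-gated cells held the lowest Zbtb16 value of BM + Spl. It was at 35.3 CPM (24.8 to 48.9) in 182 cells against 166 CPM (148 to 186) in 298 cells of BM only, a ratio of -2.23 (-2.78 to -1.73), and the single gene past 1.5-fold among the 4 of the 6 with 100 UMIs, where 12.5% of 3878 genes passed. Cells with an iNKT V beta segment were at 70.6 CPM (46.1 to 103) (56 cells) and 200.5 CPM (173 to 231) (153 cells), a ratio of -1.51 (-2.16 to -0.91). The value depended on the gates, since it was -1.14 when the NKT1 and NKT17 lists needed 1 UMI less and -0.54 with gates on all UMIs, which placed 167 and 248 cells there. Maf was also lower in NKT17-gated cells of BM + Spl, at 98.2 against 171 CPM. Tbx21 was at 10.8 against 1.15 CPM, from well under the 100 UMIs needed for a call.

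Within the same gate and library, Zbtb16 followed the V beta segment of the cell. In NKT1-gated cells of BM + Spl it was at 114 CPM with an iNKT segment and 15.2 CPM with another, a log2 ratio of 2.9 (2.11 to 3.8), where 11.6% of 2651 genes differed past 1.5-fold. NKT1+NKT2-gated cells of that library gave 209 and 26.1 CPM, a ratio of 3.002 (2.12 to 4.03). In NKT17-gated cells 26 and 3 UMIs gave 70.6 and 6.25 CPM, and in NKT2-gated cells the levels were 312 and 176 CPM. In BM only the NKT1-gated levels were 46.6 and 36.8 CPM, a ratio of 0.34 (-0.28 to 1.03), and the NKT17-gated levels 200.5 and 107, a ratio of 0.91 (0.41 to 1.45). Precursor-gated cells gave ratios of 1.48 (0.98 to 2.03) in BM only and 1.18 (0.84 to 1.54) in BM + Spl. NKT1+NKT2-gated cells of BM only gave 117 CPM (98.1 to 138) and 80.1 CPM (32.2 to 165), the latter from 7 UMIs, a ratio of 0.54 (-0.54 to 1.88). Zbtb16 was higher with an iNKT segment in each of these pairs, beyond counting error in all but the NKT1-gated and NKT1+NKT2-gated cells of BM only. This comparison was chosen after the values were seen. Thinned NKT1-gated cells of BM + Spl with another segment held a Zbtb16 UMI in 2.84% (0.929 to 6.5) of cells and NKT17-gated ones in 2.06% (0.251 to 7.25) (unthinned 3.41% and 2.06%), intervals that overlap the 1.44% (0.582 to 2.95) of Foxp3+ cells, so Zbtb16 there could not be told from background at this depth. With an iNKT segment the unthinned shares were 34.4% and 30.4%.

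**Figure D4:**
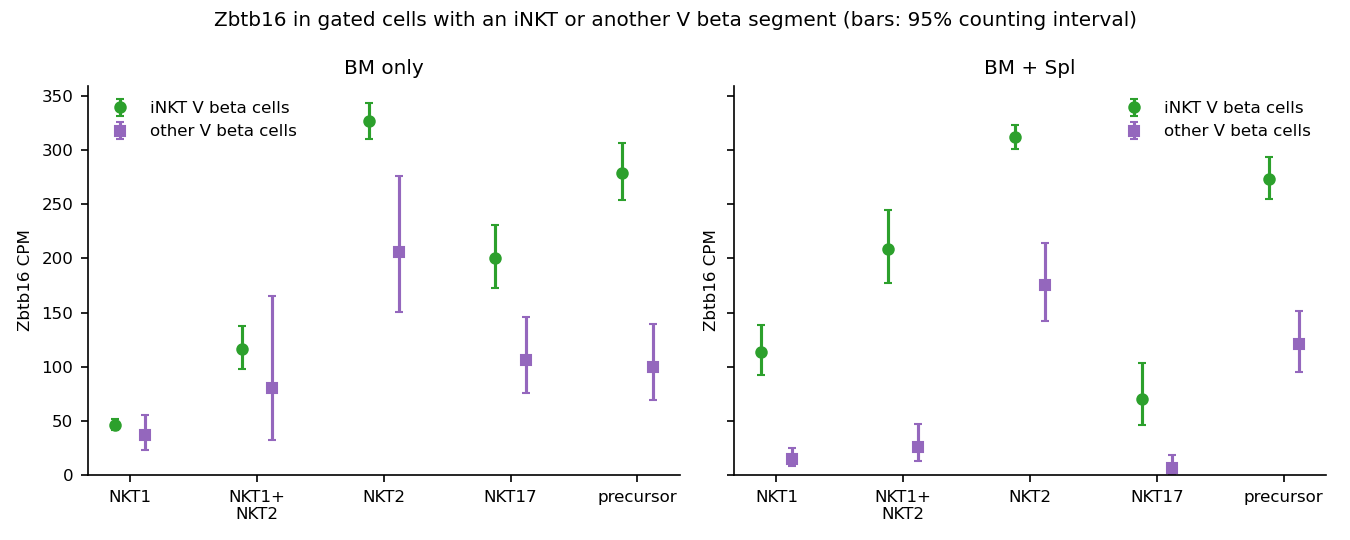
Zbtb16 level (y axis, CPM) in the 5 gates of BM only and BM + Spl, for cells with an iNKT V beta segment and cells with another segment, with points as pooled levels and bars as 95% exact Poisson intervals. In BM + Spl the NKT1-gated cells are at 114 CPM with an iNKT segment and 15.2 CPM with another.

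Other genes differed by segment in some gates. The pairs below are examples, given with the other library and without the share of all genes past 1.5-fold. Hivep3 in NKT2-gated cells of BM only was at 92.7 CPM with an iNKT segment and 22.9 with another, the latter from 5 UMIs, a ratio of 2.02 (0.78 to 3.65). In BM + Spl that gate gave 119 CPM (112 to 126) and 71.4 CPM (50.8 to 97.6). Hivep3 in precursor-gated cells of BM + Spl was at 87.3 CPM with an iNKT segment and 36.6 with another, a ratio of 1.25 (0.63 to 1.94). In BM only that gate gave 54.7 CPM (43.8 to 67.5) and 26.4 CPM (12.1 to 50.1). Bcl11b in precursor-gated cells of BM + Spl ran the other way, at 72.8 and 132 CPM, a ratio of -0.86 (-1.23 to -0.48). In BM only it did not, at 101 CPM (85.6 to 117) and 93.9 CPM (64.2 to 133). Runx1 in NKT1-gated cells of BM only was at 46.7 and 85.3 CPM, a ratio of -0.87 (-1.3 to -0.42). In BM + Spl the direction was opposite, at 107 CPM (86.2 to 131) and 89.1 CPM (71.5 to 110), with overlapping intervals. Zfp683 in NKT1-gated cells of BM + Spl was at 75.8 and 41.5 CPM, a ratio of 0.87 (0.29 to 1.47). In BM only the intervals overlap, at 138 CPM (130 to 147) and 126 CPM (98.7 to 157).

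Cells of the NKT2 gate were then divided by their thinned Zbtb16 UMIs, so that every cell has the same depth. Hivep3 was at 148, 163, 203 and 196 CPM in cells with 0, 1, 2 and 3 or more Zbtb16 UMIs in C57BL/6. The same strata gave 57.1, 82.8, 108 and 233 CPM (153 to 338) in BM only and 94.8, 112, 147 and 222 CPM (162 to 297) in BM + Spl. Gata3 gave 171 and 272 CPM in the lowest and highest stratum of C57BL/6, 116 and 181 in BM only and 128 and 178 in BM + Spl. Runx1 gave 69.4 and 98.2, 118 and 181, and 111 and 296 CPM (226 to 381). Bcl11b gave 276 and 356, 78 and 155, and 61.2 and 119 CPM. The pooled level of each of the 4 genes was higher in the cells with 3 or more Zbtb16 UMIs (181, 43 and 75 cells) than in those with 0 (672, 266 and 508 cells). The intervals of the 2 strata overlap, however, for Hivep3 in C57BL/6, at 131 to 166 and 159 to 240 CPM. They also overlap for Gata3 in both BMT libraries, for Runx1 in C57BL/6 and BM only, and for Bcl11b in BM only. The levels also did not go one way over the strata, since in BM + Spl those with 1 and 2 Zbtb16 UMIs gave 107 and 118 CPM of Gata3 and 75.2 and 56.6 CPM of Bcl11b. Over the 5 gates together Zfp683 was lower in cells with more Zbtb16 in BM only, at 104, 77.4, 25.4 and 4.94 CPM, whereas within the NKT1 gate it was at 131, 174 and 148 CPM in cells with 0, 1 and 2 Zbtb16 UMIs.

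**Figure D5:**
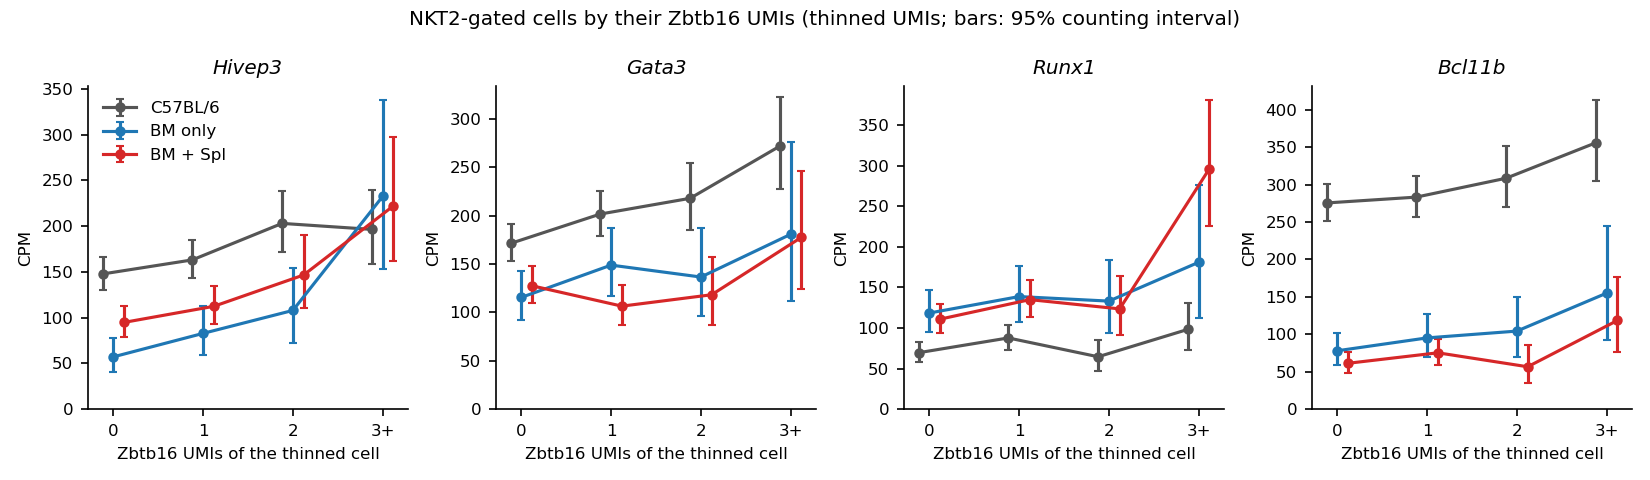
Levels of the other genes (y axis, CPM after thinning) in NKT2-gated cells with 0, 1, 2 and 3 or more thinned Zbtb16 UMIs (x axis) in the 3 libraries, with bars as 95% exact Poisson intervals. Hivep3 goes from 57.1 to 233 CPM in BM only and from 94.8 to 222 CPM in BM + Spl.

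Cycling NKT2-gated cells, with 3 UMIs of a 9-gene proliferation list, had less Hivep3 in every library and less Zbtb16 in C57BL/6 and BM + Spl. In C57BL/6 Zbtb16 was at 262 CPM in 183 cycling cells and 385 CPM in 1485 others, a log2 ratio of -0.55 (-0.64 to -0.46). It was -0.16 (-0.35 to 0.02) in BM only and -0.22 (-0.34 to -0.102) in BM + Spl. Hivep3 gave -0.54 (-0.67 to -0.402), -0.52 (-0.92 to -0.13) and -0.42 (-0.62 to -0.21), below 0 beyond counting error in each library. Bcl11b gave -0.42 (-0.52 to -0.33), -0.13 (-0.52 to 0.25) and -0.497 (-0.79 to -0.22), and Gata3 -0.06 (-0.17 to 0.05), -0.07 (-0.38 to 0.23) and -0.27 (-0.48 to -0.07).

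Cells with 3 UMIs of the interferon-response genes Ifit1, Ifit3, Isg15 and Rsad2 also had less Hivep3. In the NKT2 gate it was at 80.8 CPM in 71 such cells and 159.9 CPM in others in C57BL/6, a ratio of -0.98 (-1.33 to -0.66), with -0.82 (-1.57 to -0.16) in BM only and -0.52 (-0.902 to -0.15) in BM + Spl. Runx1 was higher in interferon-response cells of the NKT1 gate, at 1.11 (0.54 to 1.63), 0.66 (0.12 to 1.17) and 1.01 (0.27 to 1.68) in C57BL/6, BM only and BM + Spl, the last from 19 cells. Zfp683 in the NKT2 gate of BM + Spl was at 31.2 against 7.13 CPM, a ratio of 2.13 (1.4 to 2.8) from 24 UMIs in the interferon-response cells. In C57BL/6 and BM only the same gate gave 1.42 (-0.27 to 2.73) and 0.48 (-1.02 to 1.68), with 0 inside both intervals. The NKT1 gate gave -0.21 (-1.68 to 0.97) in C57BL/6 and -0.28 (-0.72 to 0.13) in BM only. In BM + Spl it gave -2.85 (-8.16 to -0.35), from 1 UMI in the interferon-response cells.

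Families and partners of these factors formed a list of 13 genes. Of the 9 with 100 UMIs in NKT2-gated and NKT1-gated cells, 0 were higher and 4, 4 and 3 were lower past 1.5-fold in C57BL/6, BM only and BM + Spl, with medians of -0.55, -0.26 and -0.24. Over all genes the medians lay between 0.00074 and 0.041, 15.1% of 9509, 14.5% of 8629 and 10.9% of 8384 genes were higher, and 13.7% of 9509, 15.7% of 8629 and 11.6% of 8384 were lower. Runx3, the Runt-domain factor of cytotoxic T cells, ran against Runx1, at 47.5 against 240.2, 16.3 against 135 and 12.4 against 98 CPM in NKT2-gated and NKT1-gated cells. Runx2 gave ratios of -2.83, -4.21 and -4.02. Hivep1, a relative of Hivep3, gave -0.63, -0.87 and -1.68. Cbfb, the partner of the Runt-domain factors, gave 0.29, 0.03 and 0.41, and Cul3, a ubiquitin ligase scaffold that binds PLZF, -0.55, -0.26 and -0.11. Of the same list, 2 of 9 genes in NKT1-gated and 0 of 8 in NKT2-gated cells were higher in BM + Spl than in BM only past 1.5-fold, and none was lower. Over all genes 8.26% of 8063 and 1.4% of 8727 were higher, and 9.17% of 8063 and 1.26% of 8727 lower. In iNKT V beta cells 0 of 9 were higher and 2 lower in NKT1-gated cells, where 22% of 7172 genes differed, and 0 of 7 were higher and 1 lower in NKT2-gated cells, where 2.47% of 8264 did. Those lower were Runx3 in both gates and Zbtb20 in NKT1-gated cells. Over all cells of the NKT17 gate 1 of 6 differed, against 12.5% of 3878 genes, and in precursor-gated cells 1 of 7, against 3.31% of 6353. Both were Runx3, at -0.66 and -1.19, and in the iNKT V beta cells of the precursor gate it had under 100 UMIs, at -0.97.

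A list of 24 other lineage transcription factors split in both directions. Of 22 with 100 UMIs, 12 were higher and 4 lower in NKT2-gated than in NKT1-gated cells of C57BL/6, 9 and 7 in BM only, and 6 and 6 in BM + Spl. Over all genes 15.1% of 9509 were higher and 13.7% of 9509 lower in C57BL/6, 14.5% of 8629 and 15.7% of 8629 in BM only, and 10.9% of 8384 and 11.6% of 8384 in BM + Spl. Id3, an inhibitor of E proteins, gave ratios of 2.33, 3.07 and 2.64, and Lef1 1.83, 2.74 and 2.14. Bhlhe40, a factor of cytokine production, gave -4.11, -3.99 and -3.88. Between BM + Spl and BM only, 7 of 20 were higher and 4 lower in NKT1-gated cells, and 1 of 22 was higher in NKT2-gated cells, Bhlhe40, where 8.26% of 8063 and 9.17% of 8063 genes, and 1.4% of 8727, did so. In NKT1-gated cells Rora was at 80.5 against 19.9 CPM, with a ratio of 2.02 in all and 2.38 in iNKT V beta cells. Tox gave 1.52 and 1.71, and Klf2, a factor of cell egress, -1.27 and -1.59.

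The patterns over the 5 gates of 3 libraries were also compared across genes, on log2(CPM + 1) centred in each library, for 8734 genes with at least 500 UMIs. The 15 points share libraries and depth, so the values of Pearson's r are descriptions. Zbtb16 was most like Dtd2 (r = 0.946), A330093E20Rik (0.944) and Pts (0.943), and Hivep3 most like B630019A10Rik (0.963), Gpr155 (0.958) and Trbv29 (0.958), a V beta segment of the iNKT list. Gata3 was most like Tnip2 (0.924), 2600014E21Rik (0.915) and Ccdc47 (0.903), and Runx1 most like Camk4 (0.964), Ssbp3 (0.959) and Ramp1 (0.939). Bcl11b was most like Srpk1 (0.920), Mtss1 (0.911) and Rassf3 (0.906), and Zfp683 most like Pglyrp1 (0.981), Scimp (0.971) and Arsb (0.969). Among the 6 genes Zbtb16 had r = 0.799 with Hivep3 and 0.741 with Gata3, Runx1 had 0.796 with Bcl11b, and Zfp683 had -0.817 with Runx1 and -0.790 with Bcl11b.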

How the data were processed

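Droplet single-cell RNA-seq of sorted thymocytes gave 3 libraries, 1 per group. The authors aligned reads to mm10 with Cell Ranger and deposited UMI counts per gene and cell, whole numbers without normalization. Of the 4613, 5986 and 5573 barcodes in C57BL/6, BM only and BM + Spl, 179, 16 and 16 failed the limits on cells used here. The supplementary methods name version 3.1.0 and both 3' and 5' kits, and the table headers name 3.0.2 and 7.0.0. The kit of each library is not given in the sources used here. The submitters' processing notes also name Seurat 4.0.2, whose output was not used.

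Counts over the 30406 gene identifiers shared by the tables were analysed in Python 3.11.15 (numpy 2.4.6, scipy 1.17.1, pandas 2.3.3, matplotlib 3.10.9). Kept cells below 2700 UMIs (15, 959 and 568) were left out of the gates. Gates used thinned UMIs. NKT1 and NKT17 needed 3 UMIs of their list, NKT2 needed 2 and precursors 1, with limits on other lists. The NKT17 gate limited only the NKT1 list. The NKT2 list was at 1413, 603 and 590 CPM in NKT17-gated cells of C57BL/6, BM only and BM + Spl. In NKT2-gated cells it was at 1233, 1084 and 1159 CPM. Cells with 1 Foxp3 UMI, 2 of the regulatory T, CD8 or B list or 3 myeloid UMIs were excluded. In C57BL/6, BM only and BM + Spl, 500 of 515, 369 of 1204 and 717 of 1894 excluded cells met the regulatory T list (Ikzf2, Ctla4, Il2ra) without Foxp3. UMIs were then summed per gate before thinning. Intervals are exact Poisson, exact conditional or, for shares of cells, Clopper-Pearson, at 95%. The calculations were tested on simulated data. Doublets were kept: Scrublet in scanpy 1.11.5 marked 0.0226%, 0.0335% and 0.054% of cells and was taken not to have worked, and an alternative left out the 6% of cells of highest score. Alternatives changed the gates, filter, cells compared, scaling and fold. The comparison by V beta segment and the removal of shared barcodes were chosen after seeing the data. The 6 genes are named by rule. Genes of the family and lineage lists past 1.5-fold are named as examples beside list counts, and the 3 genes of highest r are named for each member. Members and lists were chosen with earlier results of these data known. Promoter sequences came from RefSeq and gene positions from GENCODE (GRCm38). Regulon, velocity and clonotype analyses were not made here.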

Additional observations from a re-analysis of the deposited data

Results flagged for a closer look

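The Zbtb16 difference between NKT17-gated and NKT1-gated cells had opposite signs between libraries. Its log2 ratio was 1.23 in C57BL/6 and 1.85 in BM only, and -0.73 in BM + Spl, each past 1.5-fold with an interval off 0. The difference between libraries was not tested, since each group had 1 library. In BM + Spl 36.6% of the called NKT17-gated cells carried an iNKT V beta segment, against 65.9% in BM only, and in such cells the ratio of BM + Spl was -0.69. With gates on all UMIs of a cell it was 1.20. The NKT17 gate set no limit on NKT2-list UMIs. Their median per NKT17-gated cell was 3 in C57BL/6, 1 in BM only and 1 in BM + Spl. The part of this in the signs was not tested.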

How the results depend on the processing

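Results were recomputed under 15 alternatives in 11 comparisons. Of 891 ratios of the 6 genes, 800 stayed within the main interval, 89 moved out of it and 2 reversed. Both reversed with gates on all UMIs: Hivep3 in NKT17-gated over NKT1-gated cells of C57BL/6 to 0.70 and Zbtb16 in the same comparison of BM + Spl to 1.20. Hivep3 in that comparison of BM + Spl, with under 100 UMIs and so not called, went from -1.32 (-2.53 to -0.29) to 1.83 with the same gates. Of 163 counts of genes past 1.5-fold, 146 stayed within 1.5 times the main count and 17 moved. Between BM + Spl and BM only, gates on all UMIs gave 0 genes in NKT17-gated and 2 in precursor-gated cells. Lists needing 1 UMI more gave 2 in NKT1+NKT2-gated and 1 in NKT2-gated cells, and lists needing 1 UMI less gave 1 in NKT2-gated cells. iNKT V beta cells gave 2 in NKT1+NKT2-gated and 2 in NKT17-gated cells, leaving out interferon cells gave 1 in NKT2-gated cells, and thinned UMIs gave 2 in NKT1+NKT2-gated and 0 in precursor-gated cells. A fold of 2 gave 1 in NKT1-gated and 0 in precursor-gated cells. For NKT17-gated over NKT1-gated cells, C57BL/6 gave 3 with lists needing 1 UMI less, with mitochondrial UMIs under 5% and with a fold of 2, and BM + Spl gave 1 with lists needing 1 UMI less and with a fold of 2. The limit of 5% left 2 NKT17-gated cells in C57BL/6. The causes were not tested. Shares of all genes past the fold under the same settings are not set beside these counts. Whether a count moved with that share cannot be told here, so the counts are no result about the 6 genes by themselves. No paired analysis was possible because each group has 1 library, and for the same reason no replicate was left out. NKT17-gated cells are few, 135 to 298 per library in the main gates, which limits genes of low level there.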
